A study of Mus musculus with 4 samples.

Results

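Immediate early genes are the genes a cell switches on within minutes of a stimulus, from factors already present and without new protein synthesis. The 10 genes described here are Fos, Fosb, Jun, Junb, Egr1, Atf3, Ier2, Plk2, Plk3 and Dusp1, taken from the deposited table of 24346 gene symbols by exact match of the symbol. All 10 were found. They are early response factors that tissue dissociation often induces. The rule that names them uses no measured value, though the 10 were chosen with earlier results of these data known.

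RNA was sequenced from endothelial cells, which line the blood vessels. They were purified by flow cytometry from hearts of mice labelled young, on a C57BL/6 background, and are labelled as freshly isolated. The ECp53KO group has 2 libraries, ECp53KO_170 and ECp53KO_172. The label is taken to mean that endothelial cells lack p53, because endothelial p53 is in the title of the series. Neither the driver of the deletion nor the deleted exons are given in the sources used here. The control group, labelled wild type, has 2 libraries, Ctrl_178 and Ctrl_182. The labels do not tie the libraries to animals. Xist, transcribed from the inactive X chromosome of females, was at 23.1 FPKM in ECp53KO_172 and 0.0230 FPKM in ECp53KO_170, against 23.9 FPKM in Ctrl_182 and 0.0352 FPKM in Ctrl_178. Each group thus holds 1 library with Xist and 1 nearly without it. The p-values set the group difference against the spread between libraries, not animals, within groups. That spread also holds any difference that goes with Xist. No library of cells that had not been dissociated and sorted was analysed here. Transcript present in the heart before dissociation and transcript made during isolation therefore cannot be told apart.

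Levels are FPKM, fragment counts scaled by transcript length and by depth, as the authors deposited them. Depth was estimated from the step between low values, at about 11400000 and 9900000 fragments in the ECp53KO libraries, against 10900000 and 22500000 in Ctrl_178 and Ctrl_182. Trp53, which encodes p53, stood at 4.41 and 2.45 FPKM in ECp53KO, against 52.1 and 28.8 FPKM in Ctrl (limma adjusted p = 0.146). The endothelial markers Cdh5 and Pecam1 stood between 858 and 1098 FPKM in all 4 libraries. Over the 12 endothelial markers the median log2 fold change was 0.03, with 4 higher and 3 lower in ECp53KO without overlap (19.1% and 16.8% of all tested genes were), Emcn (762 and 620 FPKM in ECp53KO, against 534 and 469 FPKM in Ctrl) and Cldn5 (271 and 261 FPKM in ECp53KO, against 311 and 440 FPKM in Ctrl) among them.

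In a resting cell the transcription factors that act on these genes, among them serum response factor with its ETS partners and CREB, are already bound or ready, and MAP kinases activate them. FOS and JUN family proteins pair to form AP-1, which carries the response on to later genes, while DUSP1 and other products switch the kinases off again. The messages are short-lived, and enzymatic digestion of tissue is a known trigger.

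The promoters of Fos and Dusp1, the most abundant members, and of the paralogs Plk3 and Plk2, whose differences between the groups had opposite signs, are shown for the 250 bases before the RefSeq gene start (GRCm38.p6, 5′ to 3′ on the gene's strand). Capitals mark the motif TGACG on either strand, the core of the cyclic AMP response element that CREB and ATF proteins bind. The full palindromic element TGACGTCA holds this core once on each strand.
Fos (chr12:85473640-85473889, strand +): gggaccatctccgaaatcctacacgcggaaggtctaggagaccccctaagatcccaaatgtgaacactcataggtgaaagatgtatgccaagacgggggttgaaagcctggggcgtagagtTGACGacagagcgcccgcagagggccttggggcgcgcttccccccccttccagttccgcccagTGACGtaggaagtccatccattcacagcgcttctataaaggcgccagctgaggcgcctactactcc
Dusp1 (chr17:26508473-26508722, strand -): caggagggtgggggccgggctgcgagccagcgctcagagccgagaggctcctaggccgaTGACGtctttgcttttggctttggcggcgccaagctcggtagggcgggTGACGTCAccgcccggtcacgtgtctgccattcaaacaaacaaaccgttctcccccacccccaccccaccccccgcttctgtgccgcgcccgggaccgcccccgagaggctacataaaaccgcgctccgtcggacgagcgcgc
Plk3 (chr4:117133964-117134213, strand -): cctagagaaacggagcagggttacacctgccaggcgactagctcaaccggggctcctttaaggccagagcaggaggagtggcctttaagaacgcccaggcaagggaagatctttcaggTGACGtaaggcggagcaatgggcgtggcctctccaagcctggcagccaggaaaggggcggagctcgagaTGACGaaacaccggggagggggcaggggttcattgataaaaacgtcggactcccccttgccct
Plk2 (chr13:110394794-110395043, strand +): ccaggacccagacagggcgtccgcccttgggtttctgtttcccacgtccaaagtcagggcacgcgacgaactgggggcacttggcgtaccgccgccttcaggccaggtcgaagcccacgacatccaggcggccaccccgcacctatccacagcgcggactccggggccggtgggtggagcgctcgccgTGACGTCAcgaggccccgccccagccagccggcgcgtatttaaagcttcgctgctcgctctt

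The core began 129 and 66 bases before the start of Fos and 132 and 63 bases before that of Plk3. Windows of 8 of the 10 members, all but Egr1 and Ier2, were in the RefSeq promoter table. Of these 8, 7 held the core, with Jun lacking it. Over 27025 genes, 17.9% of windows of the same length held it. The full element TGACGTCA was found in 2 of the 8, Dusp1 and Plk2, and in 1.62% of all windows. Neither the AP-1 motif TGANTCA nor the CArG box of serum response factor was found in the 8, and 6.87% and 1.40% of all windows held them. A match is a run of letters in this window and says nothing of binding. Bases further from the start were not searched, so a motif absent here may lie outside the window.

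All of the 10 genes but Plk3 were among the abundant transcripts of both groups. Among 11104 tested loci other than small RNA loci, 9 of the 10 ranked in the first 750 by mean FPKM, and Fos ranked 50 and Dusp1 100. Fos averaged 1207 FPKM over the 4 libraries, more than the 1015 FPKM of the endothelial cadherin gene Cdh5. By mean FPKM the order was Fos, Dusp1, Junb, Jun, Ier2, Egr1, Plk2, Atf3, Fosb and Plk3. The ranges over the 4 libraries overlapped between the neighbours Dusp1 and Junb, Junb and Jun, and Egr1 and Plk2. Those of Plk2 and Atf3 were only just apart, with a lowest value of 217.9 FPKM for Plk2 and a highest of 217.7 FPKM for Atf3. The other neighbours were apart. Plk3 ranked 3618, with about 520 and 430 estimated fragments in ECp53KO_170 and ECp53KO_172, against 700 and 1560 in Ctrl_178 and Ctrl_182.

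**Figure D1:**
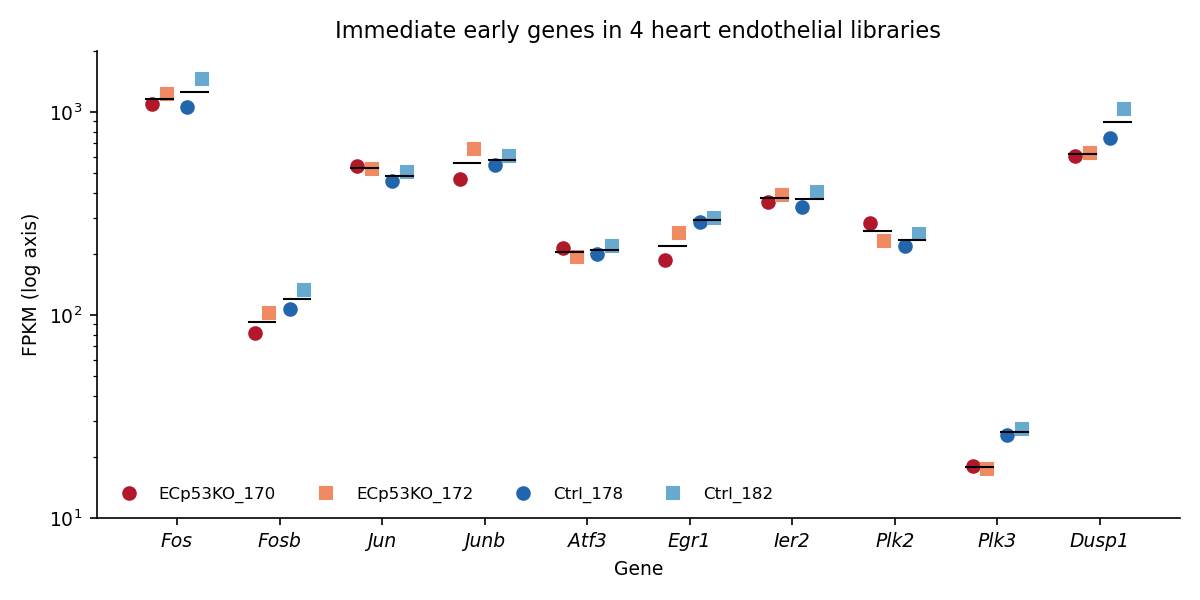
FPKM (log axis) of each of the 10 genes in each library, with ECp53KO on the left and Ctrl on the right of each gene and horizontal lines at the group means (n = 2 each). Fos lies at 1058 FPKM or more in all 4 libraries and Plk3 between 17.4 and 27.5 FPKM.

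The comparison of ECp53KO with Ctrl asks whether the early response genes differ when p53 is missing from the endothelium. None of the 10 passed the test: by limma, 0 had an adjusted p under 0.05 over all 11332 tested genes, of which 0.0265% were higher and 0.0882% lower, 0.115% together. At an unadjusted limma p under 0.05 there was 1, Plk3, against 4.78% of all tested genes. With 2 libraries per group, Trp53 itself, at a log2 fold change of -3.20, did not pass either (limma adjusted p = 0.146). A count of 0 past the threshold, here or in the lists below, therefore does not show that genes are unchanged. The groups did not overlap for 5 of the 10, with 4 lower and 1 higher in ECp53KO. Over all tested genes 35.9% had no overlap, 16.8% lower and 19.1% higher. The median log2 fold change of the 10, ECp53KO minus Ctrl on the scale of log2(FPKM + 1), was -0.09, beside 0.01 over all tested genes. On leaving out a library it was -0.25 without ECp53KO_172, -0.24 without Ctrl_178, 0.02 without Ctrl_182 and -0.06 without ECp53KO_170. The count without overlap was higher with 1 library left in a group, over the 10 as over all tested genes. It was 7 when ECp53KO_170 was left out (66.6% of all tested genes then had no overlap) and 7 when ECp53KO_172 was (78.2%). Leaving out Ctrl_178 gave 8 (61.9%), and leaving out Ctrl_182 also gave 8 (63.9%).

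By size of the fold change, sorted after the values were seen, Fosb, Egr1, Dusp1 and Plk3 had log2 fold changes of -0.38 to -0.56, and the other 6 lay between -0.11 and 0.14. The fold change exceeded the difference between libraries within both groups for 3 of the 10, Fosb, Plk3 and Dusp1, and for 22.3% of all tested genes. The median difference between the libraries of a group was 0.15 log2 units in ECp53KO and 0.17 in Ctrl over the 10, and 0.26 and 0.17 over all tested genes.

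**Figure D2:**
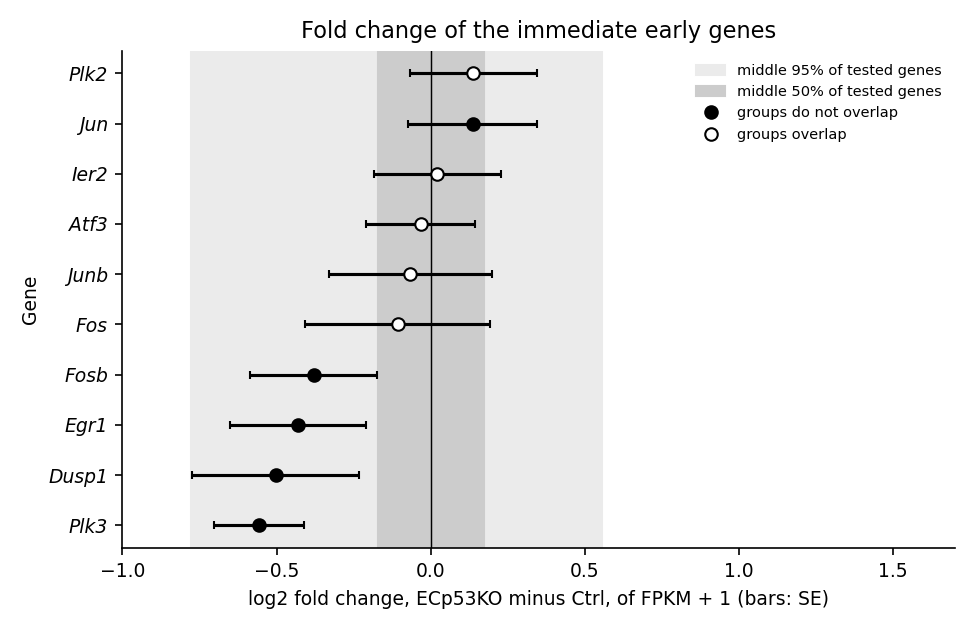
Log2 fold change of FPKM + 1, ECp53KO minus Ctrl, with its standard error from limma (bars; 2 libraries per group). Filled points are genes whose groups do not overlap, and the shaded bands hold the middle 50% and 95% of all 11332 tested genes. All 10 genes lie inside the wider band, with Fosb, Egr1, Dusp1 and Plk3 to the left of the narrower one.

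Among the FOS family, Fos, the partner of JUN in the classical AP-1 dimer, stood at 1092 and 1219 FPKM in ECp53KO, against 1058 and 1458 FPKM in Ctrl. The highest and the lowest library were both controls, so the groups overlapped. The log2 fold change was -0.11 ± 0.30 (SE; limma adjusted p = 0.953), with a 95% interval of -0.87 to 0.66. Fosb, whose product also pairs with JUN proteins, stood at 81.4 and 102 FPKM in ECp53KO, against 106 and 133 FPKM in Ctrl. Both ECp53KO libraries were below both controls, by a narrow margin between ECp53KO_172 and Ctrl_178. The log2 fold change of Fosb was -0.38 ± 0.21 (SE; limma adjusted p = 0.864), and it was -0.22 without ECp53KO_170 and -0.22 without Ctrl_182. Fos exceeded Fosb 13.4 and 12.0 times in ECp53KO and 9.94 and 11.0 times in Ctrl, a ratio chosen after its values were seen.

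Among the JUN family, Jun stood at 538 and 521 FPKM in ECp53KO, against 456 and 508 FPKM in Ctrl. In FPKM as deposited, Jun was the one member with both ECp53KO libraries above both controls. The distance between ECp53KO_172 and Ctrl_182 was small beside the range within Ctrl. The log2 fold change of Jun was 0.14 ± 0.21 (SE; limma adjusted p = 0.911), and 0.02 with each library rescaled to the same total (TPM). Junb, a JUN paralog with weaker activation of AP-1 sites, stood at 465 and 655 FPKM in ECp53KO, against 549 and 608 FPKM in Ctrl. Here the ECp53KO libraries enclosed both controls, with a log2 fold change of -0.07 ± 0.26 (SE; limma adjusted p = 0.969). Atf3, a stress-induced factor of the ATF/CREB family that can pair with JUN, varied least of the 10. It stood at 214 and 194 FPKM in ECp53KO, against 199 and 218 FPKM in Ctrl. The groups overlapped, the highest library was 1.12 times the lowest, and the log2 fold change was -0.03 ± 0.18 (SE; limma adjusted p = 0.977).

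The rest of the AP-1 family was measured beside these 5 members. Of 14 subunit genes, 12 were tested, 9 with a negative and 3 with a positive fold change and a median of -0.09. This median was -0.22 without ECp53KO_172, -0.17 without Ctrl_178 and 0.02 without Ctrl_182. The count past the limma threshold was 0, and the single gene with an unadjusted p under 0.05, where 4.78% of all tested genes had one, was Fosl2, at 11.0 and 16.5 FPKM in ECp53KO, against 20.3 and 22.4 FPKM in Ctrl. Jund, the JUN family member that quiescent cells keep, stood at 185 and 170 FPKM in ECp53KO, against 231 and 238 FPKM in Ctrl. Its groups did not overlap, and its log2 fold change was -0.40 ± 0.17 (SE; limma adjusted p = 0.864). Fosl1, at 0.19 FPKM or less in every library, and Batf3 were below the filter on low values.

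Egr1, a zinc finger factor that serum response factor induces, stood at 186 and 253 FPKM in ECp53KO, against 287 and 298 FPKM in Ctrl. Both ECp53KO libraries were below both controls, and ECp53KO_170 was the lowest of the 4. The log2 fold change was -0.43 ± 0.22 (SE; limma adjusted p = 0.864), with a 95% interval of -0.996 to 0.13. Without ECp53KO_170 it was -0.21, and without ECp53KO_172 it was -0.65. Ier2, a nuclear protein of the early response, stood at 361 and 389 FPKM in ECp53KO, against 340 and 401 FPKM in Ctrl. Both ECp53KO values lay between the controls. Its log2 fold change was 0.02 ± 0.21 (SE; limma adjusted p = 0.987), and became -0.10 with libraries rescaled to TPM, a scaling that moved the median over all tested genes to -0.10 from 0.01.

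The polo-like kinases Plk2 and Plk3 are stress-responsive relatives of the mitotic kinase Plk1, and both have been described as p53-responsive in other cells. Plk3 stood at 18.1 and 17.4 FPKM in ECp53KO, against 25.6 and 27.5 FPKM in Ctrl. The groups were clearly apart and the libraries of each were close together. Its group means were 17.7 ± 0.479 FPKM in ECp53KO and 26.5 ± 1.40 FPKM in Ctrl (SD, n = 2 each), and the log2 fold change was -0.56 ± 0.15 (SE; limma unadjusted p = 0.0115, adjusted p = 0.864). This was the member with the lowest unadjusted p. The library kit keeps no strand, and the 3′ end of Plk3 overlaps Tctex1d4, a gene listed at 0.218 FPKM or less in every library. Plk2 stood at 285 and 231 FPKM in ECp53KO, against 218 and 249 FPKM in Ctrl. The groups overlapped, with a log2 fold change of 0.14 ± 0.21 (SE; limma adjusted p = 0.909).

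Within each library, Plk2 was 15.8 and 13.3 times Plk3 in ECp53KO and 8.53 and 9.04 times in Ctrl. The ratio was chosen after its values were seen, so its lack of overlap between the groups tests nothing. That of Fos to Fosb, chosen in the same way, had no overlap either. Both promoters shown above hold the TGACG core, as the full element in Plk2 and as single cores in Plk3. The mitotic Plk1 stood at 0.855 and 1.22 FPKM in ECp53KO, against 4.11 and 2.44 FPKM in Ctrl, and the centriole kinase gene Plk4 at 1.27 and 1.40 FPKM in ECp53KO, against 2.86 and 1.96 FPKM in Ctrl. Of the family's 5 genes, 4 were tested and 0 passed by limma, and Plk1 and Plk3 were the 2 with an unadjusted p under 0.05, as 4.78% of all tested genes had. Plk5 was listed at 0 in all libraries.

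Dusp1, which encodes a nuclear phosphatase that inactivates p38, JNK and ERK kinases, stood at 605 and 630 FPKM in ECp53KO, against 741 and 1036 FPKM in Ctrl. The ECp53KO libraries were nearly equal and below both controls, and the controls differed from each other by nearly as much as the groups did, 0.48 against 0.50 log2 units. Group means were 618 ± 17.7 FPKM in ECp53KO and 888 ± 208 FPKM in Ctrl (SD, n = 2 each). The log2 fold change was -0.50 ± 0.27 (SE; limma adjusted p = 0.864), and it was -0.26 without Ctrl_182. Of 18 dual specificity phosphatases, 13 were tested, 6 with a positive and 7 with a negative fold change (median -0.01, with 0.13 without ECp53KO_170 and 0.04 without Ctrl_178). With limma 0 passed, and the only unadjusted p under 0.05 (4.78% of all tested genes had one) was that of Dusp8, at 8.90 and 14.1 FPKM in ECp53KO, against 20.6 and 21.4 FPKM in Ctrl. Dusp6, an ERK-specific feedback phosphatase, stood the other way at 87.2 and 68.8 FPKM in ECp53KO, against 57.7 and 65.7 FPKM in Ctrl.

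Which library was highest or lowest differed among the 10 genes, and such counts over all tested genes are not given here. ECp53KO_170 was lowest for 4 of the 10 and highest for 2, and ECp53KO_172 was lowest for 2 and highest for 1. Ctrl_178 was lowest for 4 and highest for none, while Ctrl_182, the most deeply sequenced library by the estimate, was highest for 7 and lowest for none. Neither the part of genotype nor that of depth in these ranks was tested. These ranks are in FPKM as deposited, which over all genes summed to 732051 in ECp53KO_170. The sums were 603783, 617026 and 609366 in ECp53KO_172, Ctrl_178 and Ctrl_182, so the ranks can change when libraries are rescaled. The 10 genes summed to 3845 and 4211 FPKM in ECp53KO_170 and ECp53KO_172, against 3980 and 4936 FPKM in Ctrl_178 and Ctrl_182. The mean of log2(FPKM + 1) was 7.98 and 8.09 in ECp53KO, against 8.10 and 8.33 in Ctrl.

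Early genes beyond the 10 were read from lists chosen with earlier results of these data known. Of 25 other early transcription factors, 23 were tested, and 21 had a negative fold change, with a median of -0.40. In 12 of the 23 both ECp53KO libraries were below both controls, where 16.8% of all tested genes were, and 0 were higher without overlap. None passed over all genes (limma, 0 of 23), and at an unadjusted p under 0.05 there were 7, all lower, where 2.82% of all tested genes were. Egr4 and Fosl1 were below the filter. The median lay between -0.29 and -0.43 on leaving out a library, and was -0.52 with libraries rescaled to TPM.

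The orphan nuclear receptor gene Nr4a1 stood at 74.96 and 121 FPKM in ECp53KO, against 157 and 221 FPKM in Ctrl, a log2 fold change of -0.96 ± 0.31 (SE; limma adjusted p = 0.864). Its paralog Nr4a2 stood at 2.91 and 3.18 FPKM in ECp53KO, against 5.32 and 9.07 FPKM in Ctrl. Bhlhe40, a repressor that takes part in the circadian clock, stood at 29.3 and 51.2 FPKM in ECp53KO, against 66.5 and 73.0 FPKM in Ctrl. These 3 had the largest fold changes of the list, all with both ECp53KO libraries below both controls. The abundant Klf2 and Klf4, flow-responsive in endothelium, and Id1, a target of BMP signalling, overlapped between groups, with log2 fold changes of -0.05, -0.24 and 0.05.

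**Figure D3:**
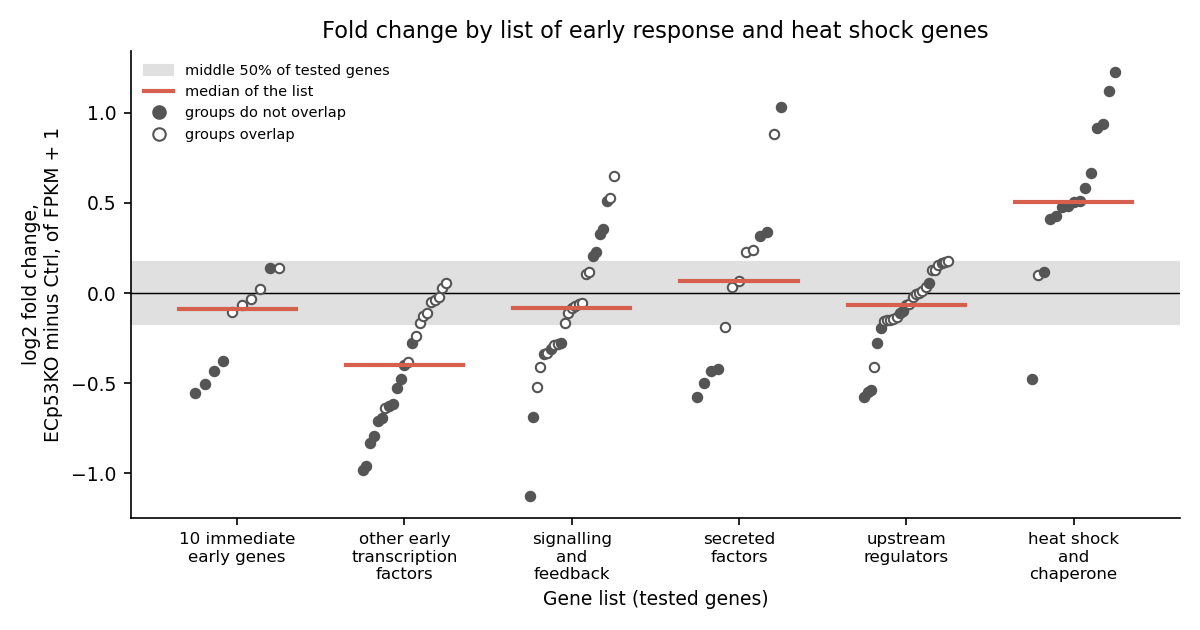
Log2 fold change of FPKM + 1, ECp53KO minus Ctrl, for each tested gene of 6 lists, sorted within the list, with the list's median in red and the middle 50% of all tested genes in grey. The medians are -0.09 for the 10 immediate early genes, -0.40 for the other early transcription factors and 0.51 for the heat shock and chaperone genes.

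The early signalling and feedback genes were spread on both sides of 0, with 16 negative and 9 positive of 25 tested and a median of -0.08. It was -0.24 without Ctrl_178 and 0.0008 without Ctrl_182. In the limma test 0 passed, and Arc and Sik1 were the 2 with an unadjusted p under 0.05, in a list of 25 and with 4.78% over all tested genes. Arc, known from neurons as a gene induced by activity, stood at 7.44 and 7.93 FPKM in ECp53KO, against 20.4 and 15.9 FPKM in Ctrl, a log2 fold change of -1.13 ± 0.18 (SE; limma adjusted p = 0.586). Sik1, a salt-inducible kinase gene and CREB target, stood at 32.2 and 38.7 FPKM in ECp53KO, against 49.1 and 67.3 FPKM in Ctrl. Both genes were apart between the groups. Of the 25, 5 were higher and 5 lower without overlap, where 19.1% and 16.8% of all tested genes were. Zfp36, whose product degrades AU-rich messages, was among the most abundant and overlapped, at 644 and 1144 FPKM in ECp53KO, against 911 and 1202 FPKM in Ctrl. The NF-kappaB feedback gene Tnfaip3 was high in a single library, at 7.43 and 20.7 FPKM in ECp53KO, against 7.71 and 7.49 FPKM in Ctrl.

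Of 15 early secreted factors, 13 were tested, 8 with a positive and 5 with a negative fold change (median 0.07). The sign of the median turned with the library left out: it was 0.21 without ECp53KO_170 and 0.20 without Ctrl_178, but -0.15 without ECp53KO_172 and -0.23 without Ctrl_182. By limma 0 passed, and an unadjusted p under 0.05 was found for 1 higher and 2 lower genes, where 1.97% and 2.82% of all tested genes were so. The neutrophil chemokine gene Cxcl1 stood at 27.6 and 62.6 FPKM in ECp53KO, against 22.5 and 17.5 FPKM in Ctrl. Adamts1, a secreted protease gene, stood at 137 and 144 FPKM in ECp53KO, against 198 and 181.8 FPKM in Ctrl. The urokinase receptor gene Plaur stood at 14.7 and 19.7 FPKM in ECp53KO, against 28.2 and 23.7 FPKM in Ctrl. These 3 are the genes with that unadjusted p, and in each the groups were apart, in differing directions. Of the 13, 3 were higher and 4 lower without overlap, where 19.1% and 16.8% of all tested genes were.

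Of the kinases and factors upstream of the early genes, all 27 were tested, 17 with a negative and 10 with a positive fold change and a median of -0.07. Both ECp53KO libraries were below both controls for 8 and above them for 2, where 16.8% and 19.1% of all tested genes were. By limma 0 passed and 0 had an unadjusted p under 0.05, where 4.78% of all tested genes did. The ERK kinase gene Mapk3 stood at 363 and 299 FPKM in ECp53KO, against 317 and 288 FPKM in Ctrl. Nab2, a corepressor of EGR1, stood at 8.15 and 14.0 FPKM in ECp53KO, against 15.5 and 17.5 FPKM in Ctrl, and had the largest fold change of the list, -0.58 ± 0.27 (SE; limma adjusted p = 0.864). These are messenger levels, and kinase activity was not measured.

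Heat shock and chaperone genes, which dissociation can also induce, lay on the other side. All 15 were tested, 14 with a positive fold change and a median of 0.51, which was 0.43 to 0.59 on leaving out a library. With libraries rescaled to TPM the median was 0.39. In 13 both ECp53KO libraries were above both controls, where 19.1% of all tested genes were. The reverse held for 1, Bag3, where 16.8% of all tested genes were lower without overlap. Bag3 stood at 33.0 and 44.0 FPKM in ECp53KO, against 51.7 and 55.2 FPKM in Ctrl. Of the 15, 0 passed over all genes by limma, and 6 were higher with an unadjusted p under 0.05, as were 1.97% of all tested genes. Hspb1, a small heat shock protein gene, stood at 1636 and 1270 FPKM in ECp53KO, against 948 and 598 FPKM in Ctrl. The constitutive chaperone gene Hspa8 stood at 1536 and 1543 FPKM in ECp53KO, against 1006 and 932 FPKM in Ctrl (log2 fold change 0.67 ± 0.26, SE; limma adjusted p = 0.864). In both genes the ECp53KO libraries were above the controls. The inducible Hspa1a, uncertain because Hspa1b is nearly identical, stood at 263 and 297 FPKM in ECp53KO, against 205 and 79.8 FPKM in Ctrl.

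Ctrl_182, where the mean over the 10 early genes was highest, had the lowest mean over the heat shock list. The mean log2(FPKM + 1) over the heat shock list was 6.77 and 6.90 in ECp53KO_170 and ECp53KO_172, against 6.48 and 6.11 in Ctrl_178 and Ctrl_182. Over the other early transcription factors it was 4.94 and 5.12 in ECp53KO, against 5.35 and 5.55 in Ctrl.

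**Figure D4:**
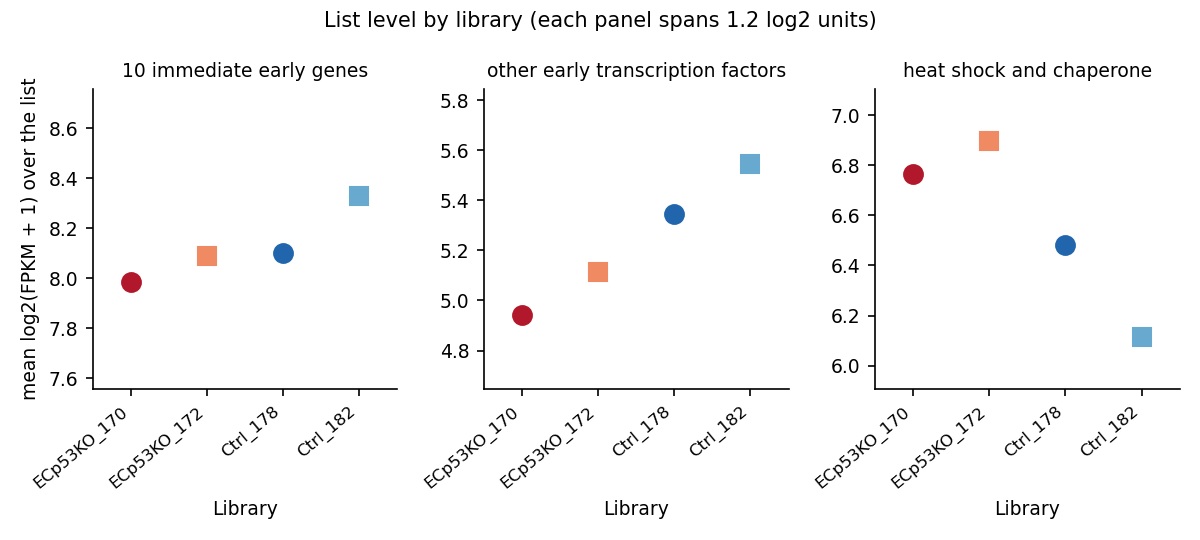
Mean log2(FPKM + 1) over the tested genes of 3 lists in each library (1 point per library; each panel spans the same range of 1.2 log2 units). The means of the 10 early genes and of the other early transcription factors are highest in Ctrl_182, at 8.33 and 5.55, and that of the heat shock genes is lowest there, at 6.11.

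Markers of other cells moved with some libraries. Of 6 erythroid genes, 5 were tested, all 5 higher without overlap (19.1% of all tested genes were), and the list summed to 390 and 95.6 FPKM in ECp53KO, against 64.4 and 37.4 FPKM in Ctrl. Most of the tested ones are haemoglobin genes, uncertain because they include nearly identical copies, so the 5 do not count as independent. The pericyte and smooth muscle list (8 of its 10 genes tested, all 8 with a positive fold change) summed to 177.8 and 145 FPKM in ECp53KO, against 95.02 and 113.5 FPKM in Ctrl. Of the 8, 4 were higher and 0 lower without overlap, where 19.1% and 16.8% of all tested genes were. Acta2, Tagln and Myl9 were the 3 with an unadjusted limma p under 0.05, all higher, as were 1.97% of all tested genes. The cardiomyocyte list (9 of its 11 genes tested, 8 with a positive fold change) summed to 381 and 212 FPKM in ECp53KO, against 209 and 195 FPKM in Ctrl. The fibroblast list summed to 29.6 and 26.9 FPKM in ECp53KO, against 31.1 and 31.4 FPKM in Ctrl. Of its 7 genes 5 were tested, 1 with a positive and 4 with a negative fold change. Leukocyte genes summed to 11.9 and 12.0 FPKM in ECp53KO, against 17.2 and 11.2 FPKM in Ctrl, with 5 of 13 measured genes tested, 2 with a positive and 3 with a negative fold change. Of these the macrophage gene Cd68 was lower without overlap, as were 16.8% of all tested genes, at 0.702 and 0.307 FPKM in ECp53KO, against 4.31 and 1.08 FPKM in Ctrl. Another macrophage gene, Csf1r, was below the filter and higher without overlap, as were 19.1% of all tested genes. It stood at 0.266 and 0.178 FPKM in ECp53KO, against 0.0693 and 0.0675 FPKM in Ctrl. Adgre1, also a macrophage gene below the filter, overlapped. Lyz2 stood between 2.52 and 3.19 FPKM and S100a8 between 0.433 and 6.47 FPKM. The pan-leukocyte marker Ptprc was at 0.11 FPKM or less, and the T cell marker Cd3e at 0 in all 4 libraries. The part of these cells in the differences above was not tested. Fewer cells with a transcript and less transcript per cell cannot be told apart in such bulk libraries.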

How the data were processed

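The deposited values are FPKM, in 1 table with a column per library, matched by title. Per the submitters' processing notes the tools were Cufflinks 2.2.1, TopHat2 2.1.0, Trimmomatic 0.36, FastQC 0.11.5 and bcl2fastq 2.17, with no role stated, and the build was mm10. The annotation used, any filters and how libraries were quantified are not stated in the labels. Per the labels' protocols, polyadenylated RNA was sequenced in pairs without strand.

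Count tests do not apply to FPKM. The 11332 genes averaging 1 FPKM or more were tested as log2(FPKM + 1), which understates the fold of low genes, with limma 3.58.1 (R 4.3.3, intensity trend, no covariate, two-sided). P-values were adjusted over all of them by Benjamini-Hochberg, with 0.05 as the threshold and 2 residual and 3.15 prior degrees of freedom. The code of the fit was checked on simulated data, with no outcome given here. With 2 libraries per group, permutation could not reach a p below 0.333.

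Depth came from 1063 genes with a single GENCODE M21 transcript and low values, as the most frequent product of FPKM and length. Estimated fragments of a gene use its longest transcript. Promoters and positions are RefSeq's (GRCm38.p6).

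The 10 genes and the 14 other lists were chosen with earlier results of these data known. Names come from the 10, Trp53 and, per list, genes past the threshold, the 3 most abundant and the 3 with the largest absolute fold change. Fosl1, Batf3, Egr4, Plk5, Bag3, Csf1r, Adgre1, Cd3e, Ptprc and Tctex1d4, where outside that rule, were named after their values were seen. Not every gene under the rule is printed. Alternatives were another pseudocount, no filter, 2 other scalings, no small RNA loci, robust shrinkage, removal of the trend with transcript length, Xist above 1 FPKM as a covariate, and leaving out each library.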

Additional observations from a re-analysis of the deposited data

How the results depend on the processing

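No member passed the limma threshold in any of the 12 alternatives. Fosb, Egr1, Plk3 and Dusp1 kept a negative and Jun a positive log2 fold change in all 12, though Jun was only 0.020 rescaled to TPM. The others crossed 0 in some, and the cause was not tested. Ier2 was -0.095 rescaled to TPM and -0.0013 with the length trend removed, and Plk2 was 0.022 rescaled to TPM. With that scaling the median was -0.20 for the AP-1 subunits and -0.18 for the upstream list, beside -0.10 over all tested genes. It was -0.52 for the other early transcription factors and 0.39 for the heat shock list. On leaving out a library, Ier2 ranged from -0.098 to 0.14, Fos from -0.34 to 0.12, Junb from -0.31 to 0.18, Atf3 from -0.10 to 0.037 and Plk2 from -0.011 to 0.29, and the median of the 10 from -0.25 to 0.021. Over all genes, in place of 3 higher, 5 were called with a pseudocount of 0.1 FPKM, 1 with no filter and 5 with robust shrinkage. In place of 10 lower, 4 were called without small RNA loci and 6 with the length trend removed. Leaving out a library gave 1 to 21 higher and 12 to 58 lower. The other early transcription factors had 17 to 23 negative fold changes of 23 and the heat shock genes 13 or 14 positive of 15 in these alternatives, whose use for the lists was decided once the data had been seen. No pairing by label was possible because the labels number the libraries without any shared number. Setting libraries side by side by Xist level instead, with Xist above 1 FPKM as a covariate, gave 2 genes higher and 13 lower and 0 members past the threshold. The 95% interval of the log2 fold change included 0 for every member but Plk3 (-0.93 to -0.19, before adjustment). Plk3 also had the fewest estimated fragments, 430 to 1560 per library.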
